A study of Mus musculus with 9 samples.

Results

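The TGF-beta pathway was followed in blood RNA through 10 genes: the ligand Tgfb1, the receptor genes Tgfbr1 and Tgfbr2, the signalling Smads Smad2, Smad3 and Smad4, the inhibitory Smad Smad7, and the corepressors Ski, Skil and Tgif1. They were chosen by symbol from the 20926 genes of the expression table, and all 10 were in it. RNA came from the blood of male DBA/1 mice, with 3 libraries from different mice in each of 3 groups. The labels give an age of 7 weeks, which the study states for the mice when they were divided into groups. The age at blood collection is not stated. Ctrl mice had no arthritis and no irradiation. CIA mice had collagen-induced arthritis, a model of rheumatoid arthritis raised by injecting chick type II collagen with complete Freund's adjuvant and boosting with collagen in incomplete adjuvant. CIA+THz mice had this arthritis too, and their swollen ankle joints were exposed to 0.1 THz for 30 min a day over 14 days, under isoflurane. Whether Ctrl and CIA mice were anaesthetised is not stated in the sources used here, so irradiation and anaesthesia cannot be told apart.

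TGF-beta is a cytokine that restrains T cell activation and supports regulatory T cells. It is stored in a latent complex and, once released, joins the type II receptor to the type I receptor, which phosphorylates Smad2 and Smad3. These pair with Smad4 and enter the nucleus, where Ski, Skil and Tgif1 repress their target genes. Smad7 is itself a target gene of the pathway, and its protein blocks the type I receptor, which makes it a feedback inhibitor.

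Smad7 was lower in CIA than in both other groups. Its level was 26.3 ± 3.71 in Ctrl against 14.7 ± 1.13 in CIA and 24.1 ± 1.19 in CIA+THz (rescaled FPKM, mean ± SD, n = 3). FPKM counts the fragments of a gene per length of transcript and per size of the library, and the authors' values were further divided by 1 factor per library, which makes levels comparable between genes and, with the limits given below, between libraries. Tgfb1 had the opposite order, with 27.0 ± 1.33 in Ctrl against 41.5 ± 2.78 in CIA and 34.1 ± 3.54 in CIA+THz. Skil was at 29.2 ± 6.56 in Ctrl against 18.4 ± 0.788 in CIA and 20.4 ± 1.63 in CIA+THz. The signalling Smads and the receptor genes showed no difference past the criterion between any pair of groups.

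Each comparison used the study's criterion, an unadjusted p under 0.05 with a log2 fold change above 0.67 in size, in limma's fit to all 12366 genes tested. Smad7 was taken up because of its value in CIA+THz against CIA, so its values are a description and carry no p. The other 9 genes were chosen with earlier results of these data known. Of all genes tested, 9.04% met the criterion in CIA against Ctrl. The share was 4.54% for CIA+THz against CIA and 7.88% for CIA+THz against Ctrl. None of the other 9 genes met it in any of the 3 comparisons. By an unadjusted p under 0.05 alone, limma counted 2 of 9 in CIA against Ctrl, Tgfb1 and Skil, where 17.3% of all genes tested had such a p. It counted 1 of 9 between CIA+THz and CIA, namely Tgfb1, against 13.2% of all genes. Between CIA+THz and Ctrl it counted 3 of 9, Tgfb1, Tgfbr1 and Skil, against 18.1% of all genes. No Benjamini-Hochberg adjusted p of the 9 genes was under 0.05 between pairs of groups. Across the 3 groups together, limma's F-test gave an unadjusted p under 0.05 for 2 of 9, Tgfb1 and Skil, against 21.3% of all genes. After adjustment it kept Tgfb1 (adjusted p = 0.0466), against 2.53% of all genes.

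**Figure D1:**
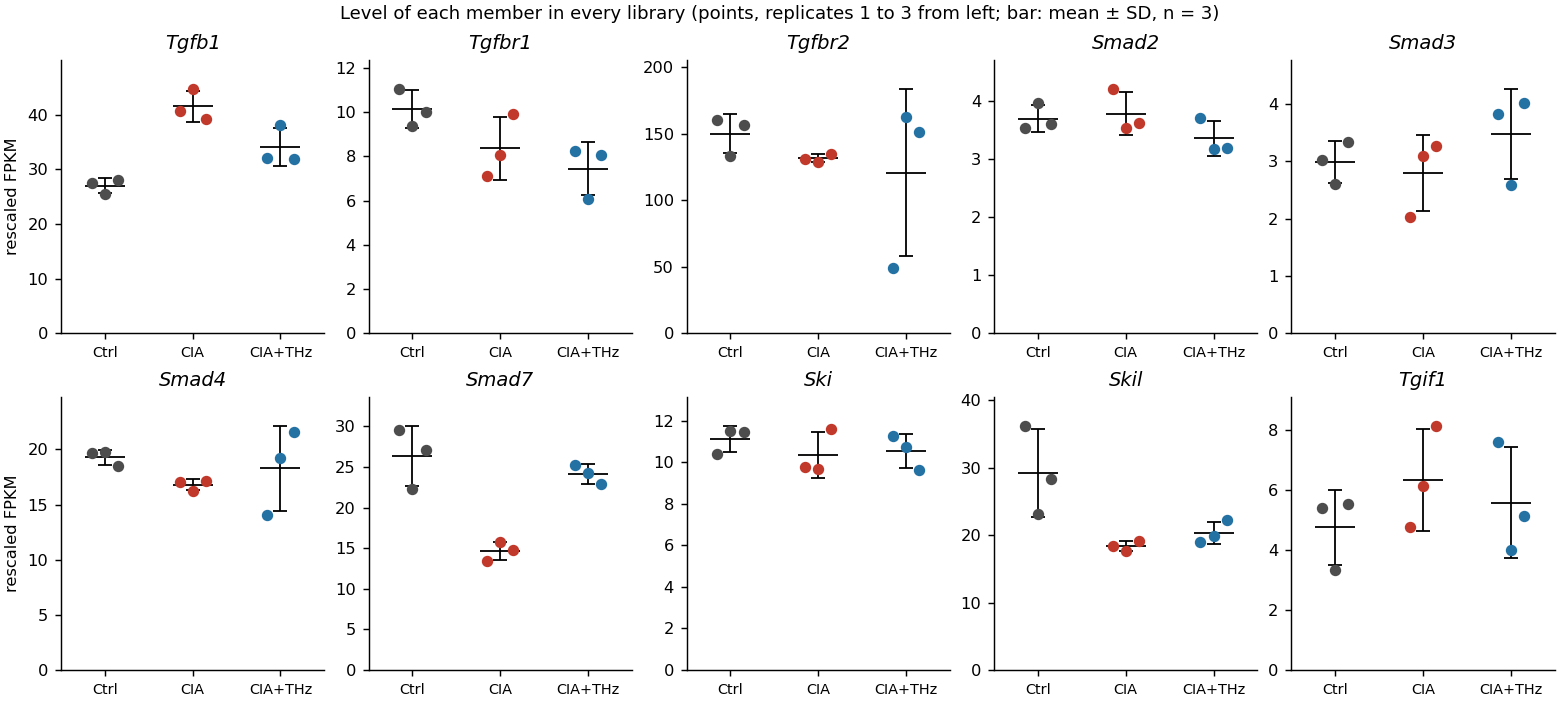
Level of each gene in rescaled FPKM (vertical axes, each starting at 0) in the 3 libraries of each group (points), with the mean and SD as bars. The CIA libraries of Smad7 lie between 13.5 and 15.7, below all 6 others, and 1 CIA+THz library of Tgfbr2 lies at 49.0 while its other 8 libraries are at 129 or more.

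The library values rest on a scaling that bears on the CIA+THz group. The authors' FPKM were divided by factors between 0.847 and 1.24, which lowered CIA+THz against CIA by 0.28, CIA+THz against Ctrl by 0.31 and CIA against Ctrl by 0.03 on the log2 scale. Without the factors, the median of all genes tested was 0.29 higher in CIA+THz than in CIA. The depth of the libraries is unknown, since the table holds no counts and low values did not fall on whole-read steps. The samples are labelled blood leukocyte, and the markers of T cells, B cells, NK cells, neutrophils and monocytes were detected in them, as were those of platelets and red cell precursors. The sum of 6 red cell precursor genes was lower in CIA+THz, from 47424 to 65415, than in CIA, from 87106 to 97823, and ran from 69077 to 103602 in Ctrl (rescaled FPKM). The single genes did not all follow the sum. From CIA to CIA+THz the log2 fold change of Alas2 was -0.71, while the median of the 6 genes was -0.06, with 4 lower and 2 higher. Without the factors 5 of the 6 were higher. From Ctrl to CIA 5 of the 6 were lower, with a median of -0.70. Of these genes, Alas2 alone took 11.4% to 14% of the summed FPKM in CIA+THz libraries, 16.3% to 16.7% in CIA and 14.4% to 16.6% in Ctrl. FPKM is relative to the total of a library, and the part of this shift in the CIA+THz values was not tested. In bulk RNA, fewer cells of a type and less RNA per cell cannot be told apart.

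In the mouse genome (GRCm38), Tgfb1 lies at chr7:25687002-25705077 on the plus strand. Tgfbr1 is at chr4:47353222-47414931 on the plus strand and Tgfbr2 at chr9:116084293-116175360 on the minus strand. Smad3 is at chr9:63646767-63757994 on the minus strand. No positions are given for Smad2, Smad4 and Smad7. Among the corepressors, Ski is at chr4:155154075-155222592 on the minus strand, Skil at chr3:31095058-31122577 on the plus strand and Tgif1 at chr17:70844205-70853546 on the minus strand. All 10 are protein-coding, and none shares an exon with another annotated gene. The table gives 1 value a gene, so their transcripts, from 2 for Tgfbr2 to 12 for Tgif1, cannot be told apart.

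The sequences before the starts of 2 genes are shown because the data bear on them most: Tgfb1 is the gene besides Smad7 with the smallest p, and Tgfbr2 has the highest level. They are the 250 bases before the annotated start, 5′ to 3′ on the strand of the gene, from RefSeq on GRCm38.p6. Capitals in the Tgfb1 window mark GGGCGG on either strand, a motif of Sp1, a general activator that works with Smads. Capitals in the Tgfbr2 window mark CAGAC, the short element that Smad3 and Smad4 bind.
Tgfb1 chr7:25686752-25687001, plus strand: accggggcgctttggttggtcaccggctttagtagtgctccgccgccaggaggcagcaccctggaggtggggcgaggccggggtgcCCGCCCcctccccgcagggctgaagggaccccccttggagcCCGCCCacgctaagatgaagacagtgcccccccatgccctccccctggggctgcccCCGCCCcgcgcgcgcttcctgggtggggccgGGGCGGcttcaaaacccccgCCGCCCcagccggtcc
Tgfbr2 chr9:116175364-116175613, minus strand: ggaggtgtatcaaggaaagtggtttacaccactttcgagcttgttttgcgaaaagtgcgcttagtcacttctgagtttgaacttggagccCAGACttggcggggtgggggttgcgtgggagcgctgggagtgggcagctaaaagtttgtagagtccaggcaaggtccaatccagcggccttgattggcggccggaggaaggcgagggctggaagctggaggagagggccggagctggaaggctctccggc

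The Tgfb1 window held 5 matches of GGGCGG and none of CAGAC, with 75.2% G or C. The Tgfbr2 window held 1 match of CAGAC and none of GGGCGG, with 58.4% G or C. Of 32851 such windows of all genes, 42.2% held CAGAC and 32.7% held GGGCGG on either strand, so neither motif is rare. The 8-base palindrome GTCTAGAC, made of 2 such Smad elements, was in 0.167% of all windows and in none of the 11 windows of the 6 genes that had one in the table used. These matches describe letters only.

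Tgfb1, the ligand most made by blood and immune cells, is followed first. Its libraries read 27.4, 25.5 and 28.1 in Ctrl, 40.7, 44.6 and 39.2 in CIA, and 32.1, 38.1 and 31.9 in CIA+THz (rescaled FPKM, replicates 1 to 3). The 3 groups did not overlap at all, with CIA highest and Ctrl lowest. Against Ctrl, CIA differed by a log2 fold change of 0.62 (SE 0.11, limma adjusted p = 0.068), just under the size of 0.67. CIA+THz differed from CIA by -0.29 (SE 0.11, limma adjusted p = 0.339) and from Ctrl by 0.33 (SE 0.11, limma adjusted p = 0.201). With FPKM as deposited, the difference between CIA+THz and CIA was -0.01 and that between CIA+THz and Ctrl 0.64. On that scale the libraries of CIA+THz and CIA overlapped.

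Marker lists of other cells are given beside Tgfb1, monocytes first. The summed level of 10 monocyte genes ranged from 562 to 611 in Ctrl, from 827 to 930.5 in CIA and from 670.4 to 708 in CIA+THz (rescaled FPKM). Of these 10 genes, 9 had a higher level in CIA than in Ctrl, and from CIA to CIA+THz 9 had a lower one. Of these, 6 and 2 met the criterion, beside 9.04% and 4.54% of all genes tested. The median from CIA to CIA+THz was -0.32, and with FPKM as deposited it was -0.05, with 6 of 10 lower. Ubiquitous genes had directions like those of Tgfb1 as well, and neutrophil genes had such a direction only from CIA to CIA+THz. From Ctrl to CIA, 6 of 12 neutrophil genes were higher and 6 lower (median -0.03), and their sums in Ctrl ran from 12678 to 21421. All 12 neutrophil genes were lower in CIA+THz relative to CIA, 4 of them past the criterion, with sums from 14771 to 19457 in CIA and from 10854.5 to 12339 in CIA+THz, and with FPKM as deposited 10 of 12 were lower. Of 12 ubiquitous genes, 10 were higher from Ctrl to CIA and 11 lower from CIA to CIA+THz, none past the criterion, and with FPKM as deposited the second direction turned, with 9 higher. Divided by the monocyte sum within each library, which no scaling alters, Tgfb1 was 0.0456 ± 0.0041 in Ctrl against 0.0471 ± 0.00611 in CIA and 0.0491 ± 0.00671 in CIA+THz (n = 3), and the 3 groups overlapped. Platelets also store TGF-beta. Against the sum of 10 platelet genes, Tgfb1 was at 0.00537 ± 0.000836 in Ctrl against 0.00826 ± 0.00058 in CIA and 0.00827 ± 0.000946 in CIA+THz, with both arthritis groups above Ctrl. The part of these cells in the Tgfb1 levels was not tested.

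**Figure D2:**
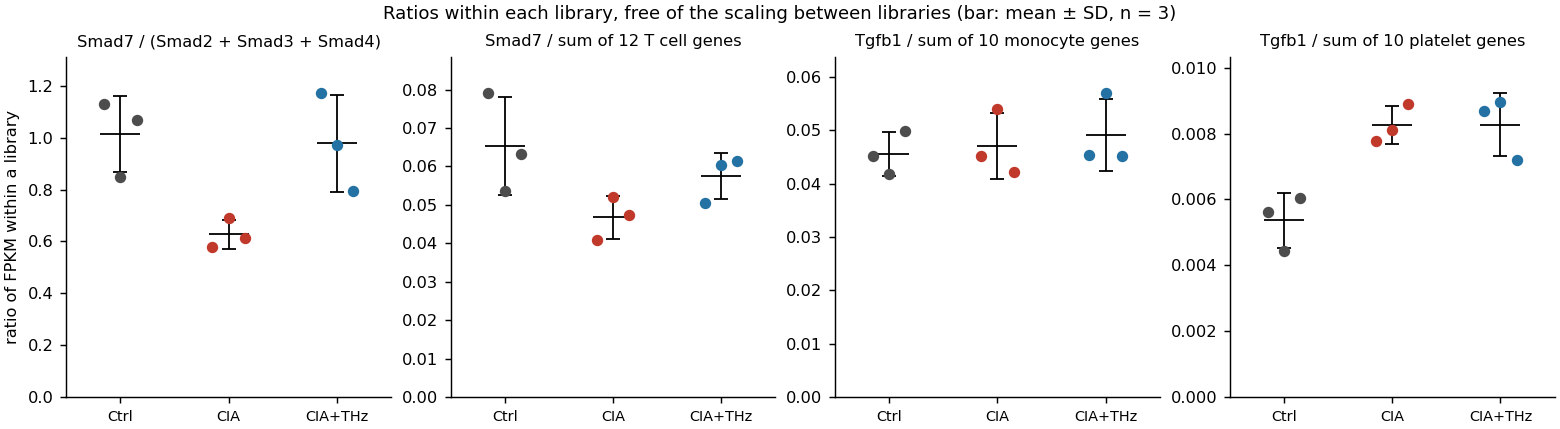
Ratios within each library (vertical axes, from 0) of Smad7 and Tgfb1 to other genes of the same library, with points for libraries and bars for the mean and SD (n = 3). The ratio of Tgfb1 to the monocyte genes has group means between 0.0456 and 0.0491, while that of Smad7 to the sum of Smad2, Smad3 and Smad4 is at 0.627 in CIA against 1.01 and 0.979 in the other groups.

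Tgfbr2, which encodes the type II receptor that binds the ligand, was the most abundant of the 10 genes. It read 161, 133 and 157 in Ctrl, 131, 129 and 135 in CIA, and 49.0, 163 and 151 in CIA+THz. The first CIA+THz library stood apart from all others. It set the whole difference of the group: the log2 fold change from CIA was -0.31 (SE 0.43, limma adjusted p = 0.792), and 0.25 without that library. From Ctrl it was -0.49 (SE 0.42, limma adjusted p = 0.581), and 0.07 without it. Between CIA and Ctrl it was -0.18 (SE 0.11, limma adjusted p = 0.437).

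Tgfbr1, which encodes the type I receptor kinase that Smad7 blocks, was far lower. It read 11.03, 9.36 and 10.02 in Ctrl, 7.10, 8.08 and 9.92 in CIA, and 8.23, 6.05 and 8.05 in CIA+THz. All CIA+THz libraries lay below all Ctrl libraries, a log2 fold change of -0.45 (SE 0.17, limma adjusted p = 0.234). With FPKM as deposited it was -0.15 and these groups overlapped. CIA lay between, at -0.28 from Ctrl (limma adjusted p = 0.459), and its libraries overlapped with those of both other groups. The ratio of Tgfbr2 to Tgfbr1 within a library was 14.8 ± 0.745 in Ctrl and 16.02 ± 2.43 in CIA, and in CIA+THz it ran from 5.96 to 26.9.

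Smad2 and Smad3, the Smads that the receptors phosphorylate, were the lowest of the 10 genes. Smad2 read 3.52, 3.96 and 3.59 in Ctrl, 4.20, 3.53 and 3.62 in CIA, and 3.70, 3.17 and 3.19 in CIA+THz. Smad3 read 3.03, 2.61 and 3.33 in Ctrl, 2.04, 3.09 and 3.27 in CIA, and 3.83, 2.58 and 4.02 in CIA+THz. Groups overlapped for both genes in every comparison. The log2 fold change of Smad3 in CIA+THz against CIA was 0.30, with a 95% interval from -0.36 to 0.97 that holds both 0 and the value of Smad7. For Smad2 the same difference was -0.17, with an interval from -0.61 to 0.27, and it was 0.10 with FPKM as deposited.

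Smad4, the shared partner of the signalling Smads, was higher than both. It read 19.7, 19.7 and 18.5 in Ctrl, 17.1, 16.2 and 17.2 in CIA, and 14.1, 19.2 and 21.6 in CIA+THz. All CIA libraries lay below all Ctrl libraries, by -0.20 on the log2 scale (SE 0.12, limma adjusted p = 0.419). The CIA+THz libraries spread over both groups. With FPKM as deposited CIA overlapped with Ctrl, and all CIA+THz libraries lay above all CIA libraries. Within libraries, Smad4 exceeded Smad2 by a factor of 5.24 ± 0.307 in Ctrl against 4.47 ± 0.351 in CIA and 5.55 ± 1.55 in CIA+THz.

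Smad7 read 29.6, 22.3 and 27.1 in Ctrl, 13.5, 15.7 and 14.8 in CIA, and 25.3, 24.2 and 22.9 in CIA+THz. All CIA libraries lay below all others, and CIA+THz overlapped with Ctrl. CIA was at 0.56 times the Ctrl level, a log2 fold change of -0.84 (SE 0.15), and CIA+THz at 1.65 times the CIA level. Between CIA+THz and Ctrl the difference was -0.12 (SE 0.13), and it was 0.19 with FPKM as deposited. For CIA against Ctrl the difference was -0.81 without the factors and -1.04 when scaled on 12 ubiquitous genes. For CIA+THz against CIA these scalings gave 1.00 and 0.88. A scaling shifts all genes of a library nearly alike. The median of all genes tested in CIA+THz against CIA rose from 0.03 to 0.29 and 0.185. In CIA against Ctrl it went from -0.01 to 0.02 and -0.197. Such shifts could not turn either difference of Smad7, so they did not test its directions.

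Ratios of Smad7 to its partners within a library need no scaling. Smad7 to the sum of Smad2, Smad3 and Smad4 read 1.13, 0.848 and 1.07 in Ctrl, 0.577, 0.689 and 0.614 in CIA, and 1.17, 0.971 and 0.796 in CIA+THz. Smad7 to Tgfb1, inhibitor to ligand, was 0.974 ± 0.103 in Ctrl against 0.353 ± 0.0229 in CIA and 0.714 ± 0.0769 in CIA+THz. In both of these ratios all CIA libraries were lowest. In the second, CIA+THz also lay wholly below Ctrl. Smad7 to Smad3 alone read 9.78, 8.55 and 8.15 in Ctrl, 6.60, 5.08 and 4.51 in CIA, and 6.61, 9.37 and 5.71 in CIA+THz. In that ratio CIA lay below Ctrl and overlapped with CIA+THz.

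T cell genes are given beside Smad7 because their sum had the same order of CIA to the other groups. The summed level of 12 T cell genes ranged from 375 to 429 in Ctrl, from 302 to 330.0 in CIA and from 374 to 501 in CIA+THz. From Ctrl to CIA all 12 were lower, and from CIA to CIA+THz all 12 were higher, under each of the 3 scalings tried. The other scalings raise CIA+THz against CIA for genes in general, so they could not turn the second direction. Of the 12, 1 (8.33%) met the criterion in each of these comparisons, beside 9.04% and 4.54% of all genes tested, and none had an adjusted p under 0.05 in limma's fits, where 4 and 8 had an unadjusted p under 0.05. The median log2 fold changes were -0.32 and 0.34. Smad7 divided by that sum was 0.0653 ± 0.0128 in Ctrl against 0.0468 ± 0.00564 in CIA and 0.0574 ± 0.00597 in CIA+THz. In this ratio CIA overlapped with CIA+THz, where its highest library was at 0.0520 and the lowest of CIA+THz at 0.0505, and lay below Ctrl, whose lowest was 0.0536. The 7 NK cell genes had the same directions, with sums from 152 to 194 in Ctrl, 56.5 to 120 in CIA and 101 to 153 in CIA+THz. Their median log2 fold changes, -0.99 and 0.59, were larger in size than those of the T cell genes. Of the 7, 5 (71.4%) and 2 (28.6%) met the criterion, beside the same 9.04% and 4.54% of all genes tested. No ratio of Smad7 to the NK cell sum was taken. The part of these cells in the Smad7 levels was not tested.

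**Figure D3:**
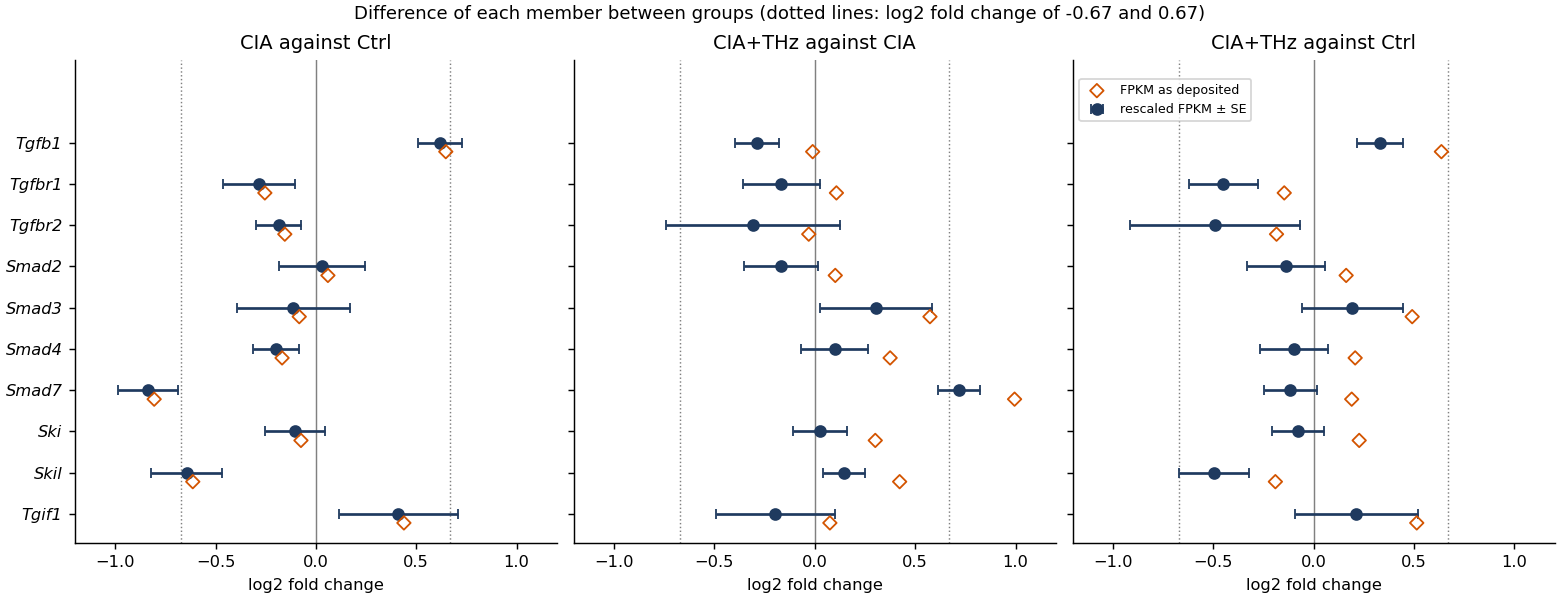
Log2 fold change of each gene (horizontal axes) in the 3 comparisons, with circles and SE bars for rescaled FPKM, diamonds for FPKM as deposited, and dotted lines at -0.67 and 0.67. Smad7 lies past the lines at -0.84 in CIA against Ctrl and at 0.72 in CIA+THz against CIA, and the deposited values of the comparisons with CIA+THz all lie to the right of the rescaled ones.

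Skil, which encodes SnoN, a corepressor that is also induced by the pathway, was the corepressor with an unadjusted p under 0.05 against Ctrl in both arthritis groups. It read 36.2, 23.2 and 28.3 in Ctrl, 18.4, 17.6 and 19.2 in CIA, and 19.0, 19.9 and 22.2 in CIA+THz. Both arthritis groups lay wholly below Ctrl, and they overlapped with each other. CIA differed from Ctrl by -0.64 (SE 0.18, limma adjusted p = 0.153), just short of the size of 0.67. Without the second Ctrl library it was -0.80 and without the third CIA library -0.67, both past the criterion, and scaled on the ubiquitous genes it was -0.85, also past it. CIA+THz differed from Ctrl by -0.50 (SE 0.17, limma adjusted p = 0.205), or -0.19 with FPKM as deposited, where these groups overlapped. Between CIA+THz and CIA the difference was 0.15, with a 95% interval from -0.10 to 0.40. With FPKM as deposited it was 0.42, and CIA+THz, from 22.8 to 24.4, lay wholly above CIA, from 16.7 to 19.0. The place of Skil in CIA+THz thus depends on the scaling.

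Ski, the closest relative of Skil, was the steadiest gene, with 1.21-fold between its lowest and highest library. It read 10.4, 11.5 and 11.5 in Ctrl, 9.76, 9.70 and 11.6 in CIA, and 11.3, 10.7 and 9.64 in CIA+THz. The ratio of Skil to Ski was 2.65 ± 0.755 in Ctrl against 1.78 ± 0.119 in CIA and 1.95 ± 0.316 in CIA+THz. Tgif1, a homeobox corepressor of Smad2 and Smad3, read 5.42, 3.32 and 5.56 in Ctrl, 4.77, 6.14 and 8.15 in CIA, and 7.63, 3.999 and 5.15 in CIA+THz. Its groups overlapped in every comparison.

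Counted by libraries that do not overlap, 1 of the 9 genes was wholly higher in CIA than in Ctrl (Tgfb1) and 2 wholly lower (Smad4 and Skil), where 11.8% of all genes tested were so in each direction and 23.5% in either. Relative to CIA, none was wholly higher in CIA+THz, against 9.38% of all genes, and 1 was wholly lower (Tgfb1), against 10.2%, with 19.6% in either direction. Relative to Ctrl, 1 was wholly higher in CIA+THz (Tgfb1), against 11.9%, and 2 wholly lower (Tgfbr1 and Skil), against 12%, with 24% of all genes in either direction. These counts are on rescaled FPKM, and FPKM as deposited gave other genes. Tgfb1 then overlapped between CIA+THz and CIA, while Smad4 and Skil lay wholly higher in CIA+THz. Tgfbr1 and Skil overlapped between CIA+THz and Ctrl, and Smad4 between CIA and Ctrl. The shares of all genes were not taken on that scale. The 3 comparisons share their libraries in pairs.

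Over the 9 libraries, the order of the mean levels was Tgfbr2 at 134, Tgfb1 at 34.2, Skil at 22.6, Smad7 at 21.7, Smad4 at 18.1, Ski at 10.7, Tgfbr1 at 8.65, Tgif1 at 5.57, Smad2 at 3.61 and Smad3 at 3.09 (rescaled FPKM, per length). Tgfbr2 lay above 96.2% of all genes tested and Smad3 above 39.9%. Tgfbr2 exceeded Tgfb1 in 9 of 9 libraries and Smad4 exceeded Ski in 9 of 9. The genes in the middle were less apart, since Tgfb1 exceeded Skil in 7 of 9 libraries, and Skil exceeded Smad7 and Smad7 exceeded Smad4 in 6 of 9 each.

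The genes with a pattern most like that of Smad7 were found by the root mean square difference of log2 values, each centred on its own mean over the 9 libraries. Among 9738 genes with a mean level of at least 1 they were Senp7 (0.108), Smc4 (0.118), Tmem260 (0.125), Zfx (0.136) and Med14 (0.137), and the median of all candidates was 0.50. Smc4, a condensin subunit, was at 17.1 ± 1.99 in Ctrl against 9.36 ± 0.371 in CIA and 14.3 ± 1.17 in CIA+THz. Senp7, a SUMO protease, was at 5.14 ± 0.52 in Ctrl against 3.04 ± 0.189 in CIA and 4.39 ± 0.248 in CIA+THz. Zfx, an X-linked zinc finger gene, was at 13.2 ± 1.99 in Ctrl against 6.15 ± 0.289 in CIA and 11.2 ± 0.758 in CIA+THz. This likeness is a description of these 9 libraries.

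The rest of the pathway was read in 7 lists with 77 genes, of which 71 passed the filter on low values. Tgfb2, Itgb6, Itgb8 and Smad9 were listed at 0 in all libraries, and Inhbb and Smad6, the other inhibitory Smad, were below the filter. In CIA against Ctrl, 6 of the 71 were higher and 3 lower by the criterion, beside 4.79% and 4.25% of all genes tested. For CIA+THz against CIA these were 2 and 1, beside 2.94% and 1.6% of all genes. The counts for CIA+THz against Ctrl were 4 and 3, beside 4.64% and 3.24% of all genes. None of the 71 had an adjusted p under 0.05 in limma's fits between pairs of groups, while 15, 12 and 16 had an unadjusted p under 0.05. Their median log2 fold changes were -0.16, 0.03 and -0.08, and those of all genes tested -0.01, 0.03 and 0.04.

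Among the proteins that hold or release the ligand, Lrrc32 met the criterion against Ctrl in both arthritis groups. It encodes GARP, which displays latent TGF-beta on regulatory T cells and platelets. It read 3.90, 2.16 and 3.09 in Ctrl, 5.98, 6.50 and 5.65 in CIA, and 4.80, 5.12 and 5.43 in CIA+THz. Both arthritis groups lay wholly above Ctrl, CIA by a log2 fold change of 1.00 (SE 0.26, limma adjusted p = 0.147) and CIA+THz by 0.76 (SE 0.25, limma adjusted p = 0.187). The second of these was 0.54 without the second Ctrl library and no longer met the criterion, nor did it without the second or the third CIA+THz library, at 0.76 and 0.72. Nrros, the GARP relative of myeloid cells, was at 91.6 ± 12.97 in Ctrl against 118 ± 16.3 in CIA and 102 ± 4.82 in CIA+THz. Ltbp3, a latency binding protein, also met the criterion between CIA and Ctrl at a very low level, listed at 0 in all Ctrl libraries and at 0.121 to 0.313 in CIA.

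Target genes of the pathway lay on both sides, with 7 of 14 higher and 7 lower in CIA than in Ctrl. Of these, 2 and 3 met the criterion, beside 4.79% and 4.25% of all genes tested. Klf10, an early target that represses Smad7 transcription, read 2.90, 2.35 and 3.00 in Ctrl, 5.16, 5.196 and 4.67 in CIA, and 4.56, 4.06 and 3.72 in CIA+THz. CIA exceeded Ctrl by a log2 fold change of 0.85 (SE 0.22, limma adjusted p = 0.14), or 0.65 when scaled on the ubiquitous genes, which falls short of the criterion. Foxp3, the regulator of regulatory T cells, was at 2.57 ± 0.595 in Ctrl against 4.79 ± 1.06 in CIA and 4.65 ± 0.693 in CIA+THz, and its log2 fold changes from Ctrl were 0.87 (limma adjusted p = 0.206) and 0.85 (limma adjusted p = 0.163). The first lost the criterion without the second Ctrl library (0.69), the second CIA library (0.79) or the third CIA library (0.76), and the second without the second Ctrl library (0.67).

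Other targets met the criterion on the lower side against Ctrl, in CIA, in CIA+THz or in both. Thbs1, which encodes thrombospondin-1, a platelet protein that releases latent TGF-beta, read 108, 139.5 and 98.1 in Ctrl, 69.9, 69.6 and 77.1 in CIA, and 58.2, 71.9 and 76.1 in CIA+THz. Both arthritis groups lay wholly below Ctrl, and CIA+THz differed from it by -0.74 (SE 0.16, limma adjusted p = 0.119), which was -0.59 without the second Ctrl library, -0.62 without the first CIA+THz library and -0.43 with FPKM as deposited, none of which meets the criterion. Ccn2, a matrix gene that met the criterion in both arthritis groups, was listed at 0 in all CIA and CIA+THz libraries and at 0.205, 1.48 and 0.378 in Ctrl. Snai1 and Cdkn2b, at mean levels of 2.58 and 1.83 in Ctrl, also met the criterion on the lower side, Snai1 in CIA and Cdkn2b in CIA+THz against Ctrl. Snai1 lost it without replicate 1 or 2 of either group, at log2 fold changes from -0.86 to -1.63, and so did Cdkn2b, at -0.97 to -1.103. Relative to CIA, 3 of the 14 targets were higher and 10 lower in CIA+THz (median -0.26), and none met the criterion. With FPKM as deposited 6 were higher and 7 lower.

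**Figure D4:**
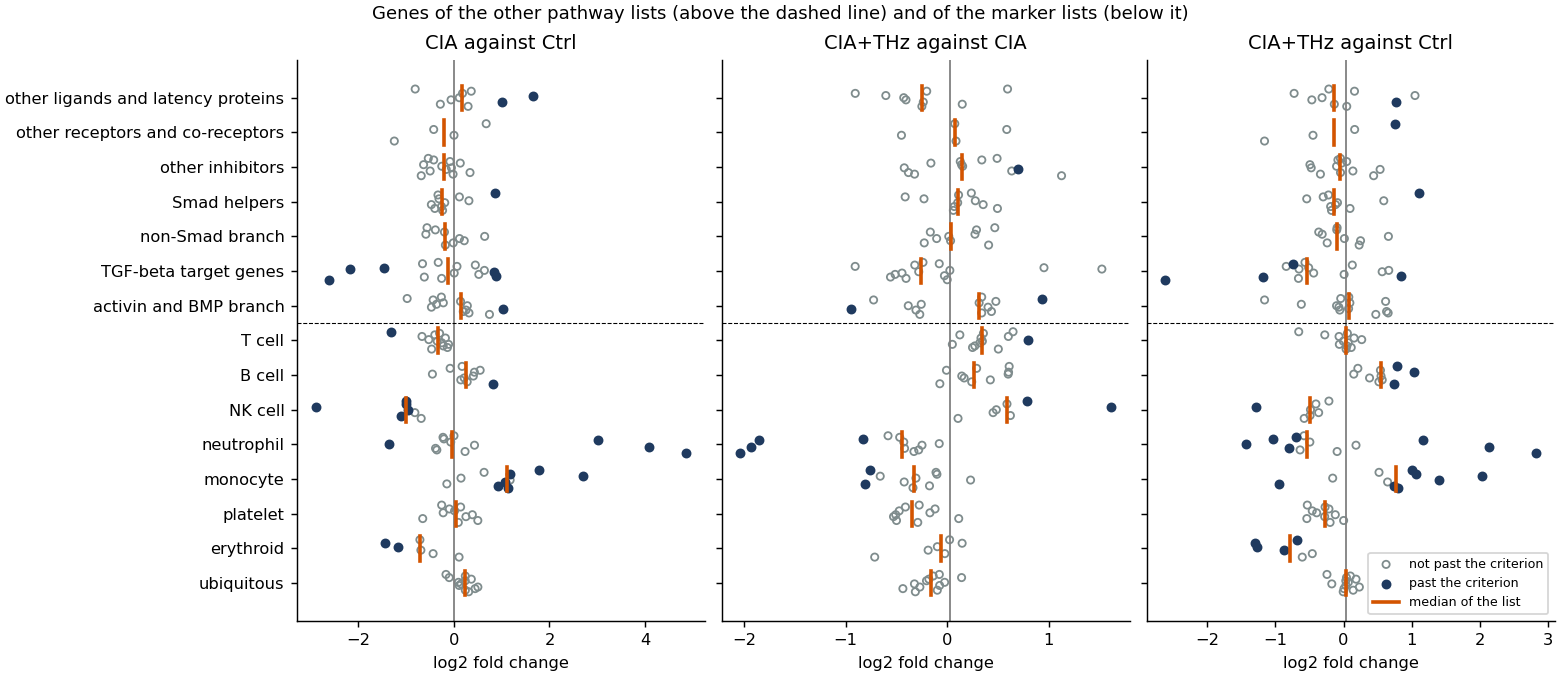
Log2 fold change (horizontal axes, different in each panel) of the genes of the 7 other pathway lists and 8 marker lists, with filled points past the criterion, orange bars at list medians and a grey line at the median of all genes tested. All 12 T cell genes lie left of 0 in CIA against Ctrl and right of 0 in CIA+THz against CIA, and the monocyte genes have a median of 1.102 in CIA against Ctrl.

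Of 12 other inhibitors of the pathway, 10 were lower in CIA than in Ctrl, none past the criterion, and from CIA to CIA+THz 8 were higher, 1 past it. With FPKM as deposited these counts were 9 and 9. Such directions were not particular to the inhibitors. Of 10 helpers of the Smads, 7 were lower from Ctrl to CIA and 8 higher from CIA to CIA+THz. Of 9 genes of the branch that acts without Smads, these were 6 and 6. Of all 12366 genes tested, 6242 were lower and 6543 higher. Pmepa1, a target gene whose product keeps Smad2 and Smad3 from the receptor, was the inhibitor past the criterion. It read 1.59, 0.599 and 0.906 in Ctrl, 0.866, 0.770 and 0.916 in CIA, and 1.62, 1.36 and 1.35 in CIA+THz. CIA+THz lay wholly above CIA, with a log2 fold change of 0.70 (SE 0.27, limma adjusted p = 0.345), and without 1 library it was between 0.62 and 0.75 and lost the criterion for each library left out except CIA replicate 3. Smurf2, the ubiquitin ligase that Smad7 brings to the receptor, read 52.7, 62.8 and 57.2 in Ctrl, 40.9, 31.6 and 39.0 in CIA, and 41.7, 40.1 and 40.4 in CIA+THz. Both arthritis groups lay wholly below Ctrl, by -0.63 (limma adjusted p = 0.0996) and -0.49 (limma adjusted p = 0.0992), short of the size of 0.67. Wwp1, another ubiquitin ligase of the Smad7 complex, was at 4.07 ± 0.523 in Ctrl against 2.76 ± 0.144 in CIA and 3.93 ± 0.272 in CIA+THz. CIA differed from Ctrl by -0.54 (limma adjusted p = 0.289) and CIA+THz from CIA by 0.49 (limma adjusted p = 0.326), both short of the criterion. Smurf2, Wwp1 and Nrros were chosen for naming after their values were seen.

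Among the helpers of the Smads, Zfyve9 encodes SARA, which presents Smad2 and Smad3 to the receptor. It read 8.997, 6.53 and 15.0 in Ctrl, 19.3, 12.3 and 23.0 in CIA, and 18.0, 22.7 and 21.9 in CIA+THz. CIA+THz lay wholly above Ctrl, with a log2 fold change of 1.11 (SE 0.29, limma adjusted p = 0.137). CIA overlapped with Ctrl at 0.87 (SE 0.35, limma adjusted p = 0.265), and lost the criterion without the first or second Ctrl library (0.83 and 0.60) or without CIA replicate 1 or 3 (0.80 and 0.68). Tgfbrap1, which encodes a protein bound to the receptors, read 5.28, 2.43 and 4.21 in Ctrl, 5.86, 5.53 and 7.02 in CIA, and 5.75, 5.97 and 7.75 in CIA+THz. Both arthritis groups lay wholly above Ctrl. CIA+THz exceeded Ctrl by a log2 fold change of 0.75 (limma adjusted p = 0.253), or 0.44 without the second Ctrl library. This call was lost for each library left out except Ctrl replicate 1. CIA exceeded Ctrl by 0.68 (limma unadjusted p = 0.065), short of the criterion on its p, and CIA+THz differed from CIA by 0.07.

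In the activin and BMP branch, the sister pathways that share Smad4, 2 of 13 genes tested met the criterion in CIA+THz against CIA, beside 4.54% of all genes. Smad1, a signalling Smad of the BMP branch, read 0.766, 1.70 and 1.89 in Ctrl, 0.609, 0.448 and 0.939 in CIA, and 1.62, 0.974 and 1.43 in CIA+THz. Acvrl1, the type I receptor ALK1, read 4.12, 2.39 and 2.14 in Ctrl, 4.20, 4.78 and 9.35 in CIA, and 3.50, 3.66 and 1.93 in CIA+THz. CIA+THz differed from CIA by a log2 fold change of 0.94 for Smad1 and -0.95 for Acvrl1 (limma adjusted p = 0.359 for both). The call of Smad1 was lost without CIA replicate 1 or 2 or CIA+THz replicate 1 or 3, at 0.72 to 0.91, and that of Acvrl1 without any library except CIA replicate 1, at -0.60 to -1.11. Acvrl1 was also 1.03 higher in CIA than in Ctrl (limma adjusted p = 0.244), and lost the criterion without replicate 2 or 3 of either group, at 0.68 to 1.15. The 9 genes of the branch that acts without Smads and the 4 other receptor genes held no gene past the criterion between CIA and Ctrl or between CIA+THz and CIA.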

How the data were processed

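RNA from the blood of 9 mice was made into libraries with a TruSeq kit and read in paired-end mode on an Illumina HiSeq. The authors deposited FPKM values for 20926 gene symbols, 1 column per library, with 0 columns of other samples. The submitters' processing notes name bcl2fastq 2.0, HISAT2, StringTie, DESeq2 and mm10, with no role or order. The annotation, strand setting and filters are not given in the sources used here.

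FPKM are not counts, so no count test was run. Each column was divided by its median ratio to the geometric mean over the 10312 genes above 0 in all libraries. log2(rescaled FPKM + 0.1) of the 12366 genes with a mean of at least 0.1 was fitted with limma 3.58.1 (trend on the mean) in R 4.3.3, for each pair of groups on its 6 libraries and for all 3 groups by F-test. Fold changes are on this scale, which understates those of low genes. Adjusted p-values are Benjamini-Hochberg over all genes tested. Libraries come from different mice, and the labels do not pair animals by replicate number.

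The 10 genes and all lists were chosen with earlier results of these data known. Named from the other pathway lists were genes past the criterion with a mean of at least 0.5, up to 10 per comparison, and the 5 genes most like Smad7 with a mean of at least 1. Smurf2, Wwp1, Nrros, Ltbp3 and Ccn2 were named after their values were seen. A gene that the rule names is not reported here. Alternatives were a pseudocount of 1, FPKM as deposited, other filters on low values, no trend, all libraries in 1 fit, a replicate block, omission of each library in turn, adjusted p, analysis of variance on linear values for the 3 groups and, chosen after seeing the data, scaling on 12 ubiquitous genes. Gene symbols were matched to GENCODE on GRCm38 for coordinates. The scripts were tested on simulated data.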

Additional observations from a re-analysis of the deposited data

How the results depend on the processing

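Under the alternatives tried, none of the 9 genes tested besides Smad7 met the criterion in CIA+THz against CIA or against Ctrl. In CIA against Ctrl 1 did, Skil, when scaled on the ubiquitous genes, and leaving out single libraries gave 0 to 1. Across the 3 groups, 1 of the 2 genes, Tgfb1, had an adjusted p under 0.05, and scaled on the ubiquitous genes 3 had an unadjusted p under 0.05, Tgfb1, Tgfbr1 and Skil. Of the 71 other pathway genes, 9 met the criterion in CIA against Ctrl, 5 with no filter on low genes, 0 with adjusted p, and 4 to 10 when single libraries were left out (4 without Ctrl replicate 2, 5 without CIA replicate 2). In CIA+THz against CIA 3 met it, 8 with FPKM as deposited, 1 with a pseudocount of 1, with a mean of at least 1 or with all libraries in 1 fit, 0 with adjusted p, and 0 to 4 when single libraries were left out (1 without CIA+THz replicate 1, 0 without CIA+THz replicate 3). In CIA+THz against Ctrl 7 met it, 4 with a pseudocount of 1, 0 with adjusted p, and 5 to 10 when single libraries were left out.

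Same-numbered libraries did not deviate together (correlations from -0.0517 to 0.0309, and from -0.034 to 0.0561 for libraries with different numbers). The values show no sign of pairing by number, but cannot tell whether libraries of 1 number shared a step of handling. With the number as a block, 1 other pathway gene met the criterion in CIA+THz against CIA in place of 3, and no count of the 9 genes changed.

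Log2 fold changes that changed sign were small or rested on 1 library. With FPKM as deposited, CIA+THz against CIA became 0.10 for Smad2, 0.11 for Tgfbr1 and 0.075 for Tgif1, and CIA+THz against Ctrl became 0.19 for Smad7, 0.16 for Smad2, 0.21 for Smad4 and 0.23 for Ski. Scaled on the ubiquitous genes, Smad2 in CIA against Ctrl became -0.17. Leaving out single libraries, CIA against Ctrl ran from -0.23 to 0.094 for Smad3 and from -0.044 to 0.081 for Smad2, where CIA replicate 1 turned the direction (as did Ctrl replicate 1 for Smad2, at -0.00068). CIA+THz against CIA ran from -0.031 (without CIA+THz replicate 3) to 0.28 for Smad4, from -0.61 to 0.25 (without CIA+THz replicate 1) for Tgfbr2, from -0.023 (without CIA+THz replicate 1, and also below 0 without CIA replicate 1 or 2) to 0.11 for Ski, and from -0.44 to 0.014 (without CIA+THz replicate 2) for Tgif1. CIA+THz against Ctrl ran from -0.23 to 0.077 for Smad4 and from -0.80 to 0.066 for Tgfbr2, both highest without CIA+THz replicate 1, and from -0.033 (without the same library, and -0.023 without Ctrl replicate 2) to 0.42 for Tgif1. Apart from the scaling itself, the cause was not tested.

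Over all genes tested, 561 met the criterion in CIA+THz against CIA (363 higher, 198 lower), 1192 with FPKM as deposited (1126 higher, 66 lower), 283 with a pseudocount of 1, and 714 higher and 98 lower when scaled on the ubiquitous genes. In CIA+THz against Ctrl 975 did (574 higher, 401 lower), 1716 with FPKM as deposited (1596 higher, 120 lower) and 1487 without Ctrl replicate 3. In CIA against Ctrl 592 were higher and 526 lower, or 319 and 1117 when scaled on the ubiquitous genes. Depth is unknown, so its part in the spread between libraries was not tested.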
